A study of Mus musculus with 12 samples.

Results

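The 36 genes described here encode enzymes of glycolysis and components and targets of the hypoxia response. They were taken by gene symbol from a table of read counts for dendritic cells (DCs) positive for CD11b, an integrin subunit of myeloid cells. All 36 symbols were among the 24391 in the table, and all 36 passed the low-count filter that left 13221 genes for testing. Of the 36, 21 are glycolysis members: 9 of upper glycolysis, 2 phosphofructokinase-2 enzymes, 8 of lower glycolysis and lactate formation, and 2 pyruvate dehydrogenase kinases. The other 15 are hypoxia members, with 5 genes of oxygen sensing and 10 genes that low oxygen is known to induce.

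Glycolysis splits glucose into pyruvate in the cytosol and yields ATP without oxygen. Hexokinases trap glucose in the cell, phosphofructokinase-1 commits it to the pathway, and lactate dehydrogenase turns pyruvate into lactate. In normal oxygen, prolyl hydroxylases (Egln genes) mark the HIF α subunits, encoded by Hif1a and Epas1, for destruction through the VHL protein. When oxygen falls, the subunits persist, bind DNA and induce many glycolytic genes together with targets such as Vegfa and Bnip3. In dendritic cells and macrophages, inflammatory activation is also known to raise glycolysis, in part through HIF-1.

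The 12 libraries came from wild-type C57BL/6J mice aged 8 to 12 weeks, in a study of established pulmonary fibrosis. A replication-deficient adenoviral vector had been given to the mice by the trachea, and it carried either a gene for active porcine TGF-β1 (AdTGFb1) or no insert (AdCL). Experiment 1 comprised AdCL libraries DC 7, 8 and 9 and AdTGFb1 libraries DC 14, 52 and 54, and experiment 3 comprised AdCL libraries DC 943, 944 and 949 and AdTGFb1 libraries DC 954, 955 and 956. The labels do not tie each library to its own animal, so p-values here measure the spread between libraries, which may be technical.

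Totals per library ran from 10099912 to 15594546 counts, and log2 levels correlated at 0.896 to 0.942 between libraries of the same group. Rn45s, a ribosomal RNA precursor, took 7.44 to 8.33% of counts in AdCL and 5.6 to 7.46% in AdTGFb1 libraries of experiment 1. In experiment 3 it took 3.92 to 4.77% in AdCL and 5.91 to 7.16% in AdTGFb1 libraries, the opposite order. The part of this share in the results below was not tested. The AdCL libraries of experiment 1 stood apart. They were all from male mice, as was AdTGFb1 DC 14, whereas the other 8 libraries were from females, judged by Xist and Y-linked genes. Their 9 endothelial markers summed to between 208 and 595 CPM (reads of a gene normalised to a common library size, with TMM scaling), against 64.4 to 170 CPM elsewhere, and their 5 fibroblast markers to between 82.8 and 194 CPM, against 16.4 to 66.8 CPM. The 6 alveolar macrophage markers summed to between 1020 and 2140 CPM in AdTGFb1 of experiment 1 and to at most 515 CPM in the other groups. Chil3 alone was at 977.5, 2040 and 1662 CPM in DC 14, 52 and 54 and at 488.3 CPM in DC 943. The 7 monocyte and macrophage markers all rose with AdTGFb1 in both experiments. Their sums went from 1400 to 1610 CPM to 2940 to 3390 CPM in experiment 1. In experiment 3 they went from 2570 to 3240 CPM to 4830 to 5440 CPM. The neutrophil markers with counts, 4 of 6 listed, summed to 14.8 to 47 CPM in AdCL and 0.0757 to 8.45 CPM in AdTGFb1 libraries. The 5 platelet markers summed to 39 to 66.2 CPM in AdCL and 15.6 to 35.6 CPM in AdTGFb1 libraries. Of the 9 dendritic cell markers, 6 fell, 1 rose and 2 were not called over both, against 17.2% of all genes called. None of the 9 dendritic cell markers was at 0, and their median log2 fold change over both experiments was -1.3. Their sum was between 10100 and 14400 CPM in AdCL and between 7620 and 10800 CPM in AdTGFb1 libraries. H2-Ab1 alone held 4785 to 9743 CPM of it. The part of these cell types in the results below was not tested except where a value is given, and in bulk RNA fewer cells of a type and less RNA per cell cannot be told apart.

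Per exon length, Vegfa, which encodes the main growth factor for blood vessels, was the most abundant member. Its median over the 12 libraries was 189 CPM per kb of exon (range 144 to 372). Aldoa, encoding the main aldolase, followed at 98.0 (75.2 to 161), then Pkm, the pyruvate kinase gene, at 85.5 (63.1 to 125), Hk2 at 82.4 (63.4 to 115), and Ldha, the lactate dehydrogenase A gene, at 60.2 (41.2 to 110) CPM per kb. From Aldoa to Ldha each range overlapped that of its neighbour, as did those of Vegfa and Aldoa, so this order is one of medians only. Exon length here joins all annotated exons of a gene, and another measure of length could change the order. For Aldoa it was 3.71 kb, against 1549 bases for the longest coding transcript. For Vegfa it was 4.285 kb, against 3451 bases. Hif1a, at 49.2 CPM per kb (37.1 to 72.9), lay among the abundant glycolytic enzymes, whereas Epas1, the gene for HIF-2α, had a median of 9.06 with a range from 3.02 to 71.8. At the low end were Eno1 at 0.413, P4ha2 at 0.703, Pfkm at 1.01 and Egln3 at 1.12 CPM per kb. The value for Eno1 is uncertain, because 85.6% of its transcript lay in near-identical copies, described below. In CPM, 13 members had a median of at least 100, 16 lay between 10 and 100, and 7 were under 10 (Pfkm, Eno1, Egln3, Bnip3, Adm, Ankrd37 and P4ha2).

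**Figure D1:**
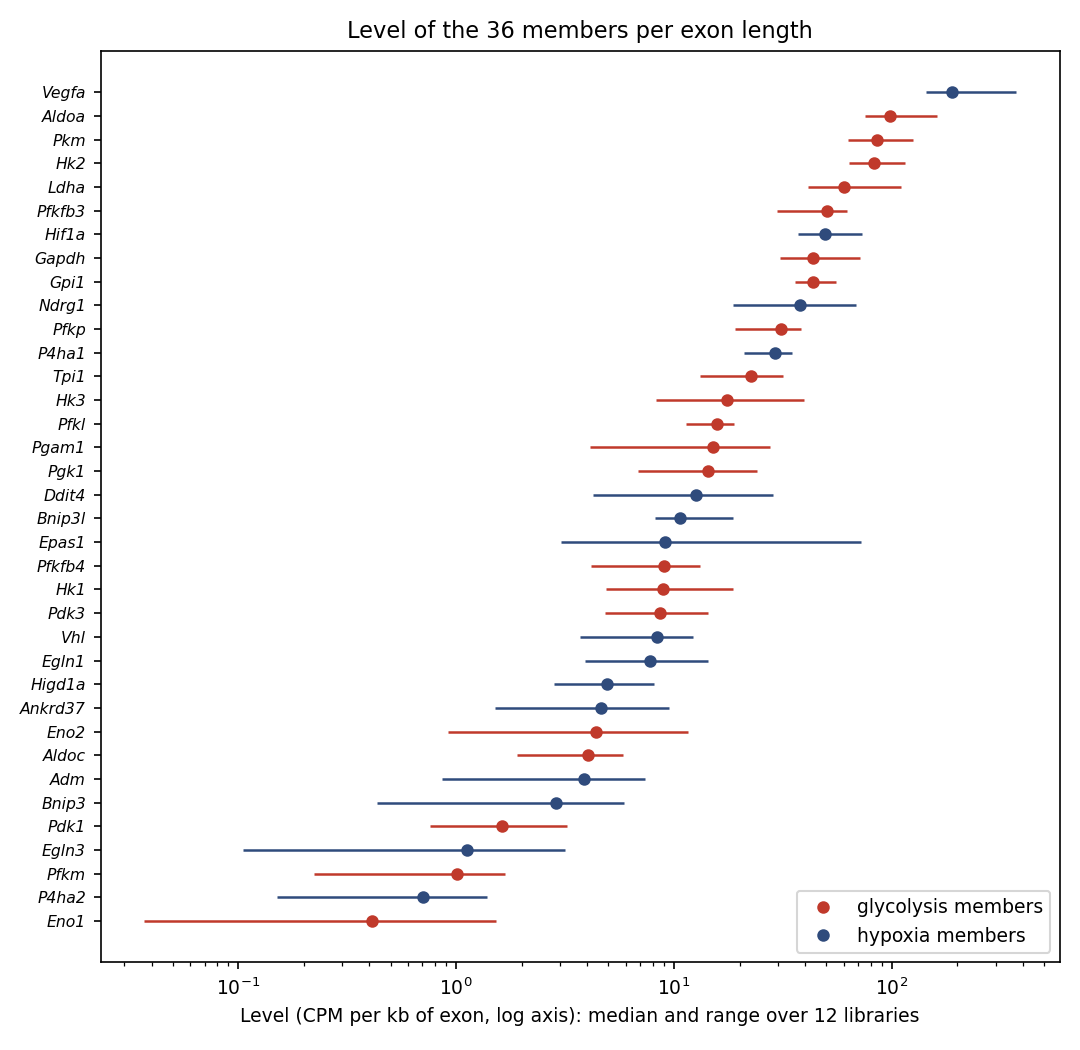
Level of each of the 36 members in CPM per kb of exon on a log axis. Points are medians over the 12 libraries and lines run from the lowest to the highest library, with glycolysis members in red and hypoxia members in blue. Vegfa and Aldoa lead, and Eno1, P4ha2 and Pfkm are lowest. The level of Eno1 is uncertain because of near-identical copies.

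Some members share sequence with other genes, and no source used here gives the strand setting or the annotation behind the counts. At least 10% of the transcript lay in near-identical copies elsewhere (stretches of at least 100 bases with at least 95% identity) for 15 members. The share was 94.2% for Bnip3, 88.0% for Gapdh, which had copies in 81 other genes, 85.6% for Eno1, 68.8% for Pgk1, 65.5% for Pkm, 55.3% for Gpi1 and 55.0% for Ldha. Levels of these genes are uncertain where reads could be split or dropped. Exons of 8 members overlapped a gene on the opposite strand (Hk1, Hk3, Pfkm, Pfkp, Aldoa, Tpi1, Gapdh and Ankrd37), and their reads could not be told from those of the partner without strand.

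Over both experiments, AdTGFb1 libraries held more Hk3, Pfkfb4 and Bnip3l and less Eno2, Ndrg1 and Pfkp than AdCL libraries, with the experiment as a term in the fit. These were 6 of 36 members (16.7%), against 17.2% of all genes tested by edgeR. The 3 higher members stood against 6.78% of all genes called higher, and the 3 lower against 10.4% called lower. The share of members called was thus near that of all genes, and the median log2 fold change of the 36 was 0.15 against -0.002 for all genes. The calls fell in both classes: 4 of 21 glycolysis members (2 higher, 2 lower) and 2 of 15 hypoxia members (1 higher, 1 lower).

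Hk3 encodes hexokinase 3, an isoform found mainly in myeloid cells. Its level was 32.3, 30.4 and 46.8 CPM in AdCL DC 7, 8 and 9 and 94.7, 62.2 and 89.6 CPM in AdTGFb1 DC 14, 52 and 54. In experiment 3 it was 67.8, 51.0 and 58.6 CPM in AdCL DC 943, 944 and 949 and 146, 82.0 and 98.8 CPM in AdTGFb1 DC 954, 955 and 956. The 2 vectors did not overlap within either experiment, and the male library DC 14 lay with its own group. The rise was 2.03-fold over both experiments (log2 fold change 1.02 ± 0.17 SE, adjusted p = 0.000404, n = 6 per vector, edgeR). Within experiments it was 1.17 ± 0.23 (adjusted p = 0.000682) and 0.88 ± 0.23 (adjusted p = 0.0197), and the difference between them was not called (-0.29 ± 0.32, adjusted p = 0.679). The experiment 3 call was lost without DC 944, 949 or 954, with adjusted p values of 0.0875, 0.0587 and 0.173.

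Hk1, the widely expressed isoform, ran from 113 to 159 CPM in AdCL and from 60.4 to 78.8 CPM in AdTGFb1 libraries of experiment 1, where it fell (log2 fold change -0.93 ± 0.24, adjusted p = 0.0065). In experiment 3 its groups overlapped (-0.11 ± 0.24, adjusted p = 0.881), and the difference between experiments was not called (adjusted p = 0.162). Hk2 is described below with the members whose change depended on the experiment.

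Pfkp, the platelet-type subunit of phosphofructokinase-1, was, per exon length, the most abundant of the 3 subunit genes, at a median of 31.0 CPM per kb. It stood at 511, 428 and 465 CPM in AdCL and 370, 477 and 390 CPM in AdTGFb1 libraries of experiment 1, where the vectors overlapped. In experiment 3 the AdCL libraries held 455, 506 and 403 CPM and the AdTGFb1 libraries 289, 255 and 280 CPM, without overlap. The fall of Pfkp over both experiments had a log2 fold change of -0.46 ± 0.12 (adjusted p = 0.014, edgeR), a call lost without DC 944 (adjusted p = 0.0603). The change was -0.73 ± 0.14 in experiment 3 (adjusted p = 0.00194) and -0.18 ± 0.14 in experiment 1 (adjusted p = 0.363), a difference that was not called (adjusted p = 0.103). The liver and muscle subunits, Pfkl (75.3 to 125 CPM) and Pfkm (0.744 to 5.58 CPM), were not called in any comparison.

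Pfkfb4 encodes one of the enzymes that make and break fructose 2,6-bisphosphate, the activator of phosphofructokinase-1. Its level was 28.8, 25.9 and 20.2 CPM in AdCL and 46.7, 63.7 and 49.6 CPM in AdTGFb1 libraries of experiment 1, without overlap. In experiment 3 the AdCL libraries held 49.6, 33.6 and 42.1 CPM and the AdTGFb1 libraries 42.2, 45.2 and 51.0 CPM, with overlap. The rise over both experiments was 0.62 ± 0.20 (adjusted p = 0.036) and was lost without any 1 of DC 7, 8, 9, 14, 52, 54 or 944 (adjusted p 0.058 to 0.0932). Adding sex to the fit gave 0.41 (adjusted p = 0.213), and adding the endothelial markers gave 0.37 (adjusted p = 0.202). It was 1.09 ± 0.23 in experiment 1 (adjusted p = 0.00107) and, in experiment 3, 0.14 ± 0.22 (adjusted p = 0.817), with an adjusted p of 0.0765 for the difference. Pfkfb3, its paralog, was not called for the vector, with -0.12 ± 0.12 over both experiments (adjusted p = 0.575), -0.33 ± 0.15 in experiment 1 (adjusted p = 0.119) and 0.09 ± 0.15 in experiment 3 (adjusted p = 0.833). It was higher in experiment 3 than in experiment 1 (0.67 ± 0.12, adjusted p = 0.0033).

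Eno2 had the largest fall among the called members over both experiments. It encodes neuron-specific enolase, also known as a HIF target, while Eno1 encodes the widespread α-enolase and Eno3 the muscle form. Eno2 stood at 54.8, 38.2 and 46.6 CPM in AdCL and at 5.08, 4.30 and 8.80 CPM in AdTGFb1 libraries of experiment 1. The experiment 3 libraries stood at 36.5, 33.9 and 29.8 CPM in AdCL and at 11.6, 8.70 and 11.6 CPM in AdTGFb1. All 6 AdTGFb1 libraries lay below all 6 AdCL libraries. Levels were 4.88-fold lower with AdTGFb1 (log2 fold change -2.29 ± 0.27, adjusted p = 1.36e-05), with -2.94 ± 0.32 in experiment 1 (adjusted p = 6.64e-07) and -1.65 ± 0.30 in experiment 3 (adjusted p = 0.00121). These calls held in each of the 19 alternatives run for each of these comparisons, among them the fit with a term for sex and the fit with a term for endothelial markers. No alternative had a term for the dendritic cell or the monocyte and macrophage markers, which also moved with the vector. Their part in the fall of Eno2 was not tested. For Eno1 all 6 AdTGFb1 libraries (2.27 to 8.23 CPM) lay above all 6 AdCL libraries (0.199 to 2.17 CPM), on 2 to 103 counts, and it was not called (1.71 ± 0.70, adjusted p = 0.107). Its near-identical copy Eno1b held 1 to 9 counts per library. Reads that fit more than 1 copy could have been split or dropped, so the level of Eno1 is uncertain.

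Bnip3l encodes a mitochondrial receptor for mitophagy that hypoxia induces. Its level was 37.1, 31.8 and 38.7 CPM in AdCL and 42.3, 65.3 and 72.2 CPM in AdTGFb1 libraries of experiment 1, without overlap. In experiment 3 the AdCL libraries held 46.4, 32.5 and 31.6 CPM and the AdTGFb1 libraries 52.8, 49.4 and 39.7 CPM, with overlap through DC 943 and 956. The rise over both experiments was 0.55 ± 0.17 (adjusted p = 0.0331), and it was lost without any 1 of DC 7, 8, 9, 52, 54, 944, 949 or 954 (adjusted p 0.0502 to 0.0998). Adding sex gave 0.32 (adjusted p = 0.29), and adding the endothelial markers gave 0.42 (adjusted p = 0.149). In experiment 1 it was 0.74 ± 0.23 (adjusted p = 0.0235), a call lost without DC 8, 52 or 54 (adjusted p 0.0649 to 0.129). Bnip3, its relative, ranged from 0.977 to 13.3 CPM and was not called (0.90 ± 0.48, adjusted p = 0.228).

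Ndrg1, a gene that hypoxia and iron loss are known to induce, fell in both experiments, with a difference between them of -0.05 ± 0.20 (adjusted p = 0.923). It stood at 434, 409 and 453 CPM in AdCL and 248, 269 and 220 CPM in AdTGFb1 libraries of experiment 1. The experiment 3 libraries stood at 292, 250 and 213 CPM in AdCL and 141, 149 and 124 CPM in AdTGFb1. Within each experiment all AdTGFb1 libraries lay below all AdCL libraries, while the AdTGFb1 libraries of experiment 1 lay within the range of the AdCL libraries of experiment 3. The log2 fold change of Ndrg1 was -0.84 ± 0.11 over both experiments (adjusted p = 2.87e-05), with -0.82 ± 0.14 in experiment 1 (adjusted p = 0.00022) and -0.87 ± 0.14 in experiment 3 (adjusted p = 0.000508). It was also lower in experiment 3 than in experiment 1 (-0.81 ± 0.11, adjusted p = 0.000316). The comparison of experiments called Pfkfb3 and Ndrg1, 2 of 36 members (5.56%), against 6.43% of all genes tested.

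**Figure D2:**
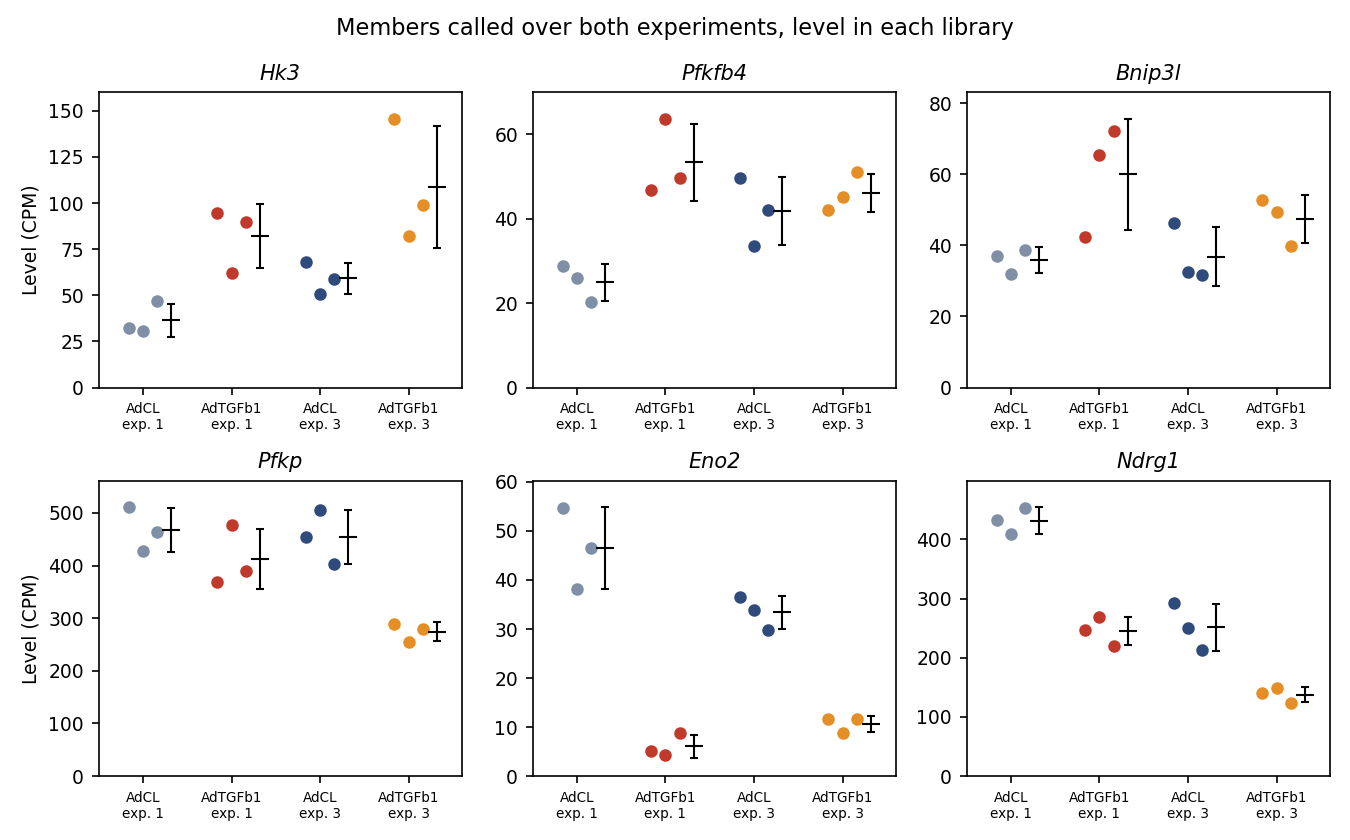
Level in CPM of the 6 members called over both experiments, by vector and experiment. Points are single libraries, and the black marks give the mean ± SD of 3 libraries. Eno2 and Ndrg1 were below AdCL within each experiment and Hk3 above it, whereas Pfkfb4 and Bnip3l overlapped in experiment 3 and Pfkp in experiment 1.

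Taken by experiment, the members split. In experiment 1, 17 of 36 (47.2%) were called, against 24.7% of all genes. Of these, 13 rose, against 10.6% of all genes called higher, and 4 fell, against 14.1% called lower. The median log2 fold change of the 36 was 0.53, against -0.03 for all genes. In experiment 3, 7 of 36 (19.4%) were called, against 6.43% of all genes. Only Hk3 rose, against 1.97% of all genes called higher, and 6 members fell, against 4.46% called lower. The median was -0.11, against 0.003 for all genes. Of the 4 members called in each experiment, Hk3, Eno2 and Ndrg1 kept their direction, and Pgk1 rose in experiment 1 and fell in experiment 3.

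Of the 13 members that rose in experiment 1, 10 were glycolytic. Among the 21 glycolysis members, 10 rose (Hk2, Hk3, Gpi1, Aldoa, Pfkfb4, Tpi1, Gapdh, Pgk1, Pgam1 and Ldha), 2 fell (Hk1 and Eno2) and 9 were not called. Of the 8 lower glycolysis members, 5 rose, and their median log2 fold change was 0.82. Of the 15 hypoxia members, 3 rose (Hif1a, Egln1 and Bnip3l), 2 fell (Epas1 and Ndrg1) and 10 were not called. Whether glycolysis and hypoxia members differed was not tested, because the 2 classes were compared by counts alone. In experiment 3 the glycolysis members had 1 gene higher and 3 lower (Pfkp, Pgk1 and Eno2), and the hypoxia members had 3 lower (Ndrg1, Vegfa and Ddit4).

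In experiment 1 the sex of the mice and the level of endothelial transcripts moved with the vector. The groups did not overlap for 19 of 36 members (14 above, 5 below), against 40.5% of all genes tested. For all 13 members that rose, the male library AdTGFb1 DC 14 lay above the 3 male AdCL libraries. For 10 of the 13 it was the lowest of its group. The 13 were picked by a fit that included DC 14. The first count was therefore largely set by that choice and is no test of the part of sex. With a term for sex, 4 members were called in experiment 1 (Hk3 higher; Eno2, Epas1 and Ndrg1 lower) and 9.8% of all genes. With a term for the endothelial markers, only Eno2 was called, and 0.371% of all genes. All 17 members kept their direction under both terms, and the SEs grew, from 0.14 to 0.38 without a term to between 0.19 and 0.60 with sex and between 0.34 and 0.99 with the endothelial markers. The change was at least as large as without the term for 4 of the 17 with sex and for 9 of the 17 with the endothelial markers. Ldha, for example, was 0.63 ± 0.23 with sex and 1.05 ± 0.47 with the endothelial markers, and Tpi1 was 0.74 ± 0.29 and 1.40 ± 0.53. Bnip3l, at 0.24 ± 0.30 and 0.08 ± 0.58, became smaller under both. Fits of the libraries of experiment 1 alone called the same 17 members. When single libraries were left out, 12 to 17 members were called, the fewest without DC 52. Among the 15 members with at least 10% of the transcript in a near-identical copy, 8 rose and 1 fell in experiment 1, and among the other 21, 5 rose and 3 fell.

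**Figure D3:**
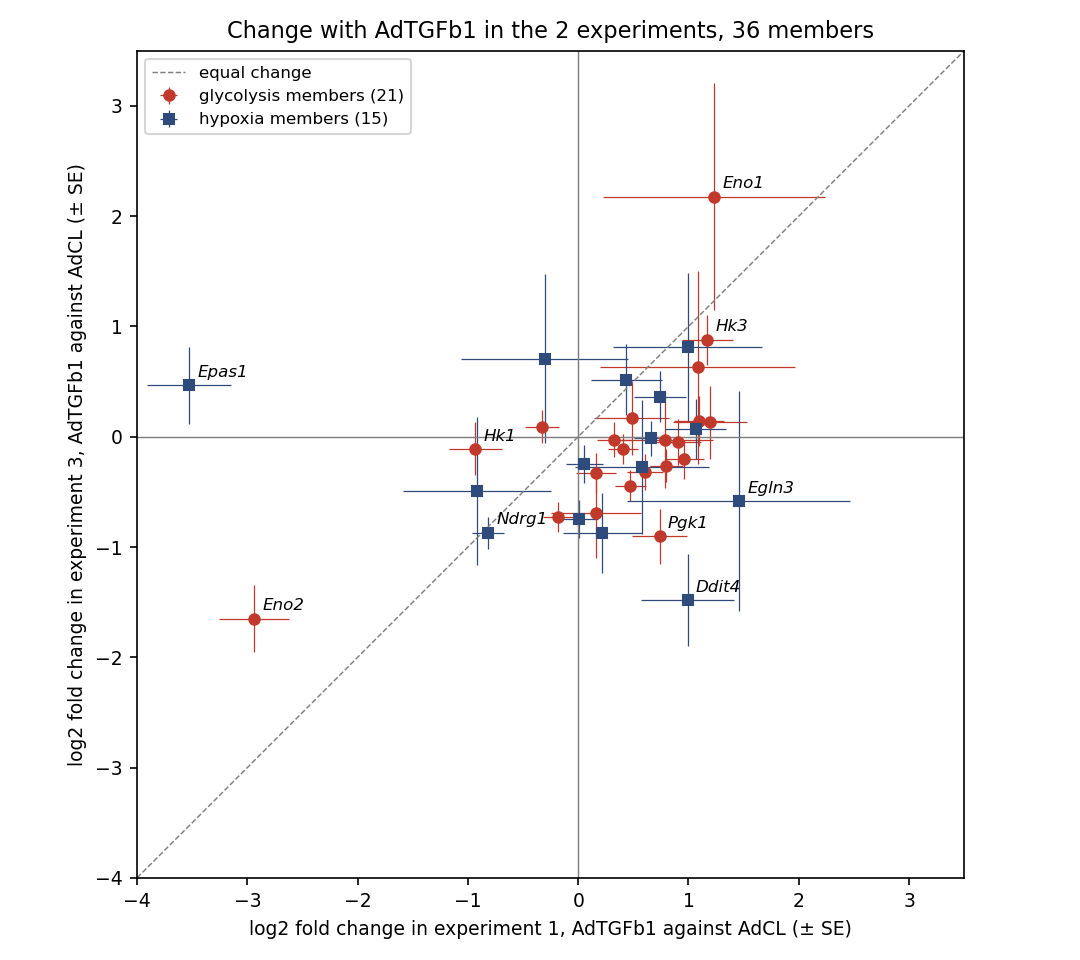
Log2 fold change of AdTGFb1 against AdCL in experiment 1 (x axis) and experiment 3 (y axis) for the 36 members, with the SE of each. Red circles are the 21 glycolysis members, blue squares the 15 hypoxia members, and the dashed line marks equal change. Most members lie below the line, 28 of 36 with a negative difference, against 6437 of 13221 genes tested. Epas1 lies far to the upper left of the line.

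The difference between the vector's effects, experiment 3 minus experiment 1, was called for 7 of 36 members (19.4%), against 6.02% of all genes. In 6 it was negative, against 2.59% of all genes, and these were Hk2, Aldoa, Gapdh, Pgk1, Ldha and Ddit4. In 1, Epas1, it was positive, against 3.43% of all genes. The difference was below 0 for 28 of 36 members and for 6437 of 13221 genes tested. Its median was -0.53 for the members, against 0.02 for all genes. By class, 5 of 21 glycolysis members and 2 of 15 hypoxia members were called.

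The core promoters of the 5 glycolytic members in this group are shown because such genes are known to carry HIF sites near their start. Each window holds 250 bases before and 50 bases after the first-listed transcription start in RefSeq (build GRCm38.p6), on the gene's strand. Capitals mark ACGTG or GCGTG, the core of the hypoxia response element, on either strand (CACGT or CACGC on the other), with overlapping matches joined. The windows are Hk2 at chr6:82774405-82774704 (minus strand), Aldoa at chr7:126800398-126800697 (minus strand), Gapdh at chr6:125165724-125166023 (minus strand), Pgk1 at chrX:106186850-106187149 (plus strand) and Ldha at chr7:46845554-46845853 (plus strand).
Hk2: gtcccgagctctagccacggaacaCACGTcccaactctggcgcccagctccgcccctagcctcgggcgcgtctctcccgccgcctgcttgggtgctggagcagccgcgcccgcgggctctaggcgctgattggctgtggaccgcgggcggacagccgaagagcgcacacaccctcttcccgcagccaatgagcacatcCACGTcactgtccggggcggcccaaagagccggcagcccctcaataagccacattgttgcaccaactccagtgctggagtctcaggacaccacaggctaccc
Aldoa: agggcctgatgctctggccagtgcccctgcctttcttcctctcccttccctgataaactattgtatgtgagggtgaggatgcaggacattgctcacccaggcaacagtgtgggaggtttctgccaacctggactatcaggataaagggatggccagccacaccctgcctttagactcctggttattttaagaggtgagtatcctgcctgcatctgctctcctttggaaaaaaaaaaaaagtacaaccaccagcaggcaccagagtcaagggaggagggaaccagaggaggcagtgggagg
Gapdh: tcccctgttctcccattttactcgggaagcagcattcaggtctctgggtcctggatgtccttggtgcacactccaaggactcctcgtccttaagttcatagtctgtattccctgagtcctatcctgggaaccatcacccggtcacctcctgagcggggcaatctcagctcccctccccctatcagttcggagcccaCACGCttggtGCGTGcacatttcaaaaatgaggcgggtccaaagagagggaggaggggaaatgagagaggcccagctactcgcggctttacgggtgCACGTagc
Pgk1: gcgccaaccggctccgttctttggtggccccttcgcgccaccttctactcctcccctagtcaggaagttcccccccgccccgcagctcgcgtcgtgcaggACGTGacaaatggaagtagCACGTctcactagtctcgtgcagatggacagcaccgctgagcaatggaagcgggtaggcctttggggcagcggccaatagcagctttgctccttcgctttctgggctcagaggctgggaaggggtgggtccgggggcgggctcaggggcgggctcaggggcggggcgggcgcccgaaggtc
Ldha: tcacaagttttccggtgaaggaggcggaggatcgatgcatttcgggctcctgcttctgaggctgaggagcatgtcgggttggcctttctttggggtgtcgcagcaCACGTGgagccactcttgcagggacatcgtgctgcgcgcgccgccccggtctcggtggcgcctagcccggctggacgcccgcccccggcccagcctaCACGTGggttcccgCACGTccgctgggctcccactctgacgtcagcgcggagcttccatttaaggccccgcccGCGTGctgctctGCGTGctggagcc
Counted singly, Ldha held 7 matches, Gapdh 3, and Hk2 and Pgk1 2 each, while the first-listed of 3 Aldoa starts had none. In Ldha, 2 pairs of overlapping matches form the palindrome CACGTG. A match was present in 43.8% of 27025 promoters of this length, which include those of genes not tested here. It was present in 15 of 21 glycolysis members (71.4%) and 10 of 12 hypoxia members with an entry (83.3%). The share among the genes tested was not taken, so these shares are no measure of enrichment. A match is only a description of the sequence, since binding was not measured here.

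Hk2, the inducible hexokinase of activated cells, ran at 412, 378 and 404 CPM in AdCL and 471, 622 and 564 CPM in AdTGFb1 libraries of experiment 1. It ran at 592, 686 and 579 CPM in AdCL and 492, 492 and 380 CPM in AdTGFb1 libraries of experiment 3. The groups did not overlap in either experiment, and the order of the vectors was opposite. The change was 0.47 ± 0.14 in experiment 1 (adjusted p = 0.017) and -0.45 ± 0.14 in experiment 3 (adjusted p = 0.0613), and the difference was -0.92 ± 0.20 (adjusted p = 0.00705, edgeR). The experiment 1 call was lost without DC 52 or 54 (adjusted p = 0.094 and 0.0542).

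Aldoa stood at 320.4, 325.3 and 302.6 CPM in AdCL and 457.1, 597.1 and 596.7 CPM in AdTGFb1 libraries of experiment 1. The 3 AdTGFb1 libraries lay above all 9 other libraries. In experiment 3 the AdCL libraries held 422.0, 345.8 and 393.4 CPM and the AdTGFb1 libraries 381.4, 308.6 and 278.9 CPM, with overlap. Aldoa rose 1.74-fold in experiment 1 (0.80 ± 0.15, adjusted p = 0.00033), with -0.26 ± 0.15 in experiment 3 (adjusted p = 0.363) and a difference of -1.06 ± 0.21 (adjusted p = 0.00312).

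Gapdh, the dehydrogenase of the middle of the pathway and often used as a reference gene, was at 162, 178 and 181 CPM in AdCL and 211, 295 and 289 CPM in AdTGFb1 libraries of experiment 1. It was at 207, 156 and 182 CPM in AdCL and 171, 140 and 126 CPM in AdTGFb1 libraries of experiment 3. Only in experiment 1 did the groups not overlap, and there the AdTGFb1 libraries exceeded all 9 others. The change was 0.61 ± 0.16 (adjusted p = 0.00814) in experiment 1 and -0.32 ± 0.16 (adjusted p = 0.313) in experiment 3. The difference of -0.93 ± 0.23 (adjusted p = 0.0173) was lost without DC 52, 54 or 956 (adjusted p 0.0514 to 0.0534).

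Pgk1, an X-linked gene for the first ATP-forming enzyme of glycolysis, moved in opposite directions. It was at 26.6, 35.8 and 24.9 CPM in AdCL and 47.9, 54.1 and 43.8 CPM in AdTGFb1 libraries of experiment 1. In experiment 3 it was at 36.6, 28.2 and 43.6 CPM in AdCL and 22.1, 20.5 and 15.4 CPM in AdTGFb1. The groups were apart in both experiments. Pgk1 rose 1.67-fold in experiment 1 (0.74 ± 0.25, adjusted p = 0.032) and was 1.87-fold lower in experiment 3 (-0.90 ± 0.25, adjusted p = 0.0291), with a difference of -1.64 ± 0.35 (adjusted p = 0.00623). Both within-experiment calls were close to the threshold. The first was lost without DC 7, 9, 14, 52 or 54 (adjusted p 0.0528 to 0.121). The second was lost without DC 943, 949, 955 or 956 (adjusted p 0.0549 to 0.163) and in the fit of experiment 3 alone (adjusted p = 0.0547). It was also lost with a term for the endothelial markers, at a log2 fold change of -0.94 (adjusted p = 0.0715).

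Ldha was at 136, 141 and 179 CPM in AdCL and 235, 365 and 290 CPM in AdTGFb1 libraries of experiment 1. It was at 203, 195 and 236 CPM in AdCL and 187, 221 and 143 CPM in AdTGFb1 libraries of experiment 3. The groups were apart in experiment 1 and overlapped in experiment 3. The rise in experiment 1 was 1.95-fold (0.96 ± 0.18, adjusted p = 0.000394), against -0.21 ± 0.18 in experiment 3 (adjusted p = 0.616), with a difference of -1.17 ± 0.25 (adjusted p = 0.00685).

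Ddit4, which encodes the mTORC1 inhibitor REDD1 and responds to hypoxia and glucocorticoids, varied more between libraries. It was at 13.2, 7.66 and 21.6 CPM in AdCL and 16.8, 45.0 and 22.8 CPM in AdTGFb1 libraries of experiment 1, with overlap. In experiment 3 it was at 28.1, 44.8 and 49.9 CPM in AdCL and 7.47, 22.8 and 13.9 CPM in AdTGFb1, without overlap. The change was 0.99 ± 0.42 in experiment 1 (adjusted p = 0.0884) and -1.48 ± 0.42 in experiment 3 (adjusted p = 0.0348), where the call was lost without DC 944, 949, 954 or 956 (adjusted p 0.102 to 0.157). The difference was -2.47 ± 0.59 (adjusted p = 0.0139), lost without DC 52 (adjusted p = 0.0562). With a term for the endothelial markers the experiment 3 change was -1.61 and no longer called (adjusted p = 0.0694).

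**Figure D4:**
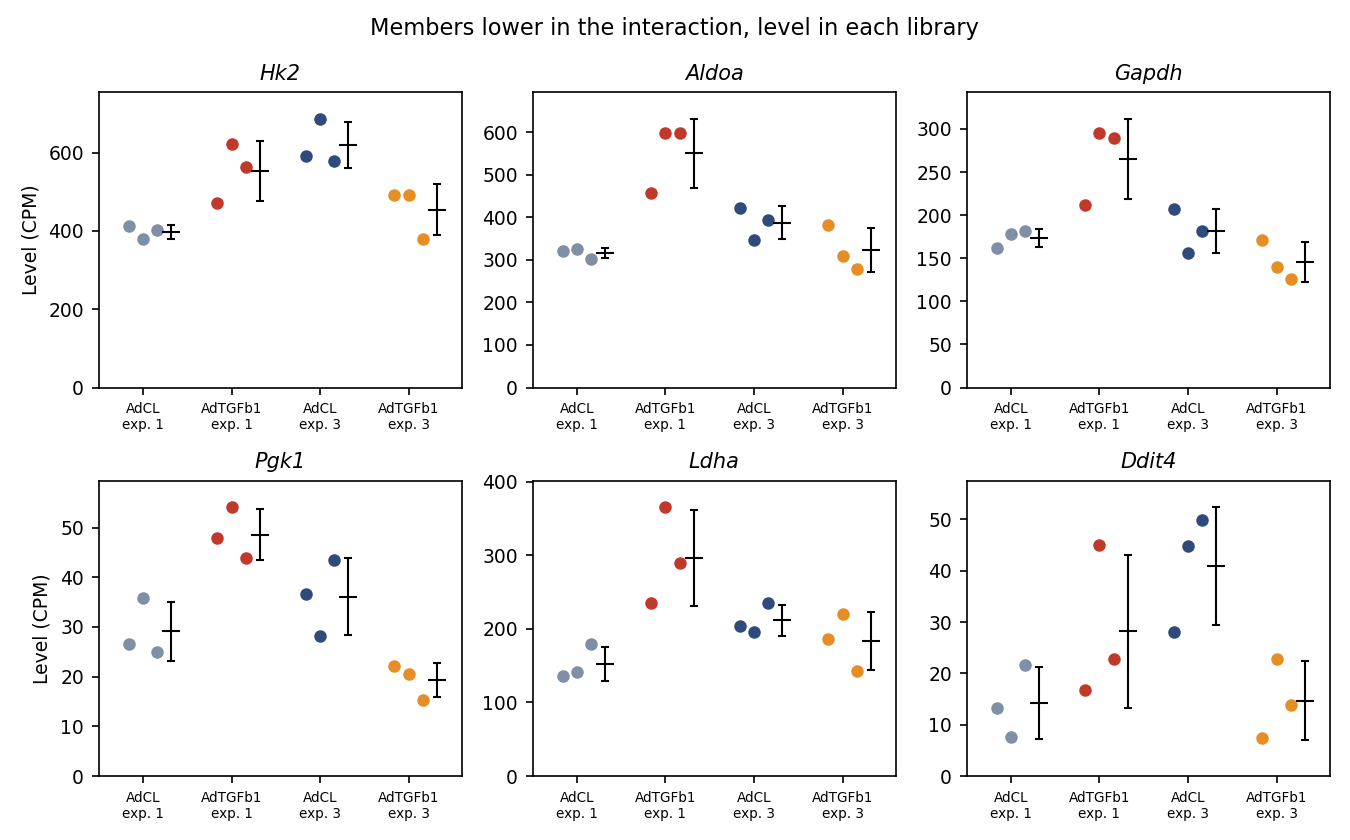
Level in CPM of the 6 members whose change with AdTGFb1 was lower in experiment 3 than in experiment 1. Points are single libraries and black marks the mean ± SD of 3 libraries. In experiment 1 the AdTGFb1 group lay above AdCL except for overlap in Ddit4, and in experiment 3 its mean lay below AdCL in each panel.

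For all 6 of these members the difference stayed below 0 but was no longer called with a term for sex (adjusted p 0.0649 to 0.304) or for endothelial markers (adjusted p 0.601 to 0.848). With sex in the fit it was -0.69 ± 0.23 for Hk2, -0.79 ± 0.23 for Aldoa, -0.60 ± 0.26 for Gapdh, -1.62 ± 0.42 for Pgk1, -0.83 ± 0.29 for Ldha and -1.73 ± 0.68 for Ddit4, each nearer to 0 than without the term. With the endothelial markers it was -0.93 ± 0.45 for Hk2, -0.61 ± 0.47 for Aldoa, -0.53 ± 0.54 for Gapdh, -1.80 ± 0.82 for Pgk1, -1.28 ± 0.60 for Ldha and -3.04 ± 1.43 for Ddit4. Under that term the SEs were more than those without it for all 6, while the difference was smaller only for Aldoa and Gapdh. The sex term rests on DC 14 against DC 52 and 54, the only group with both sexes. With the endothelial term, 0.0227% of all genes were called for the difference, so few genes of any kind passed that fit. The alveolar macrophage marker sum also followed this pattern, at 42.1 to 130 CPM in AdCL against 1020 to 2140 CPM in AdTGFb1 of experiment 1, and at 144 to 515 CPM against 53.5 to 85.0 CPM in experiment 3. All 6 markers had a positive change in experiment 1, with 2 called, and all 6 a negative difference between experiments, with 2 called. Their part in the result was not tested.

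Pkm, which encodes the pyruvate kinase of the last step, was at 412, 477 and 443 CPM in AdCL and 471, 572 and 625 CPM in AdTGFb1 libraries of experiment 1. It was at 384, 363 and 387 CPM in AdCL and 482, 315 and 317 CPM in AdTGFb1 libraries of experiment 3. The groups overlapped in both, and Pkm was not called over both experiments (0.15 ± 0.13, adjusted p = 0.474). Other lower glycolysis members rose in experiment 1 without a called difference between experiments. Tpi1, for triose phosphate isomerase, rose by 0.90 ± 0.21 in experiment 1 (adjusted p = 0.00293) with a difference of -0.95 ± 0.29 (adjusted p = 0.0575). Pgam1, for phosphoglycerate mutase, rose by 1.19 ± 0.34 (adjusted p = 0.0123; 0.0666 without DC 52) with a difference of -1.06 ± 0.47 (adjusted p = 0.2). In upper glycolysis Gpi1, for glucose-6-phosphate isomerase, rose by 0.41 ± 0.14 in experiment 1 (adjusted p = 0.0333), a call lost without DC 9, 14, 52 or 54 (adjusted p 0.0686 to 0.102). Aldoc, at 6.23 to 19.0 CPM, and the kinases that inhibit pyruvate dehydrogenase, Pdk1 at 5.87 to 25.0 CPM and Pdk3 at 12.3 to 36.6 CPM, were not called in any comparison.

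Among the genes of oxygen sensing, Hif1a and Epas1 went opposite ways in experiment 1. Hif1a, for the HIF-1α subunit, was at 219, 240 and 291 CPM in AdCL and 343, 411 and 430 CPM in AdTGFb1 libraries of experiment 1. In experiment 3 it was at 326, 254 and 290 CPM in AdCL and 343, 277 and 242 CPM in AdTGFb1. The AdTGFb1 libraries of experiment 1 were above all 9 others, and in experiment 3 the groups overlapped. Hif1a rose by 0.66 ± 0.16 in experiment 1 (adjusted p = 0.00352) and changed by -0.02 ± 0.16 in experiment 3 (adjusted p = 0.981), with a difference that was not called (-0.67 ± 0.22, adjusted p = 0.0713). Over both experiments it was not called (0.32 ± 0.14, adjusted p = 0.136). RNA level does not show the amount of HIF-1α, which is known to be set mainly by its destruction.

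Epas1, for HIF-2α, is known to be abundant in endothelium. It was at 121, 402 and 272 CPM in AdCL and 29.0, 16.9 and 23.1 CPM in AdTGFb1 libraries of experiment 1, and at 33.7, 68.8 and 33.0 CPM in AdCL and 35.6, 85.9 and 65.7 CPM in AdTGFb1 libraries of experiment 3. The AdCL libraries of experiment 1 were above every other library. Epas1 was 11.5-fold lower with AdTGFb1 in experiment 1 (-3.53 ± 0.38, adjusted p = 6.64e-07) and not called in experiment 3 (0.47 ± 0.35, adjusted p = 0.537). The difference was 3.99 ± 0.51 (adjusted p = 7.98e-05). The 9 endothelial markers summed to 208, 595 and 390 CPM in DC 7, 8 and 9, to 85.0, 64.4 and 73.6 CPM in DC 14, 52 and 54, to 93.3, 129 and 78.1 CPM in DC 943, 944 and 949, and to 114, 170 and 120 CPM in DC 954, 955 and 956. Among the 12 libraries, the one with the most Epas1, DC 8, also had the highest sum, and the one with the least, DC 52, had the lowest. All 9 markers had a negative change in experiment 1, with 8 called, and all 9 a positive difference between experiments, with 7 called. In experiment 3, 7 of the 9 had a positive change and no call was made. With their mean as a term, the experiment 1 change of Epas1 was -0.30 (adjusted p = 0.849) and the difference between experiments -0.02 (adjusted p = 1). Adding sex instead gave -3.19 (adjusted p = 0.00191) and 3.66 (adjusted p = 0.0109). The 2 values with the endothelial term had SEs of 0.47 and 0.62. In experiment 1, 5 of 6 lung epithelial and 2 of 5 fibroblast markers were called lower too. To which of these cell types the Epas1 change belongs was not tested.

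**Figure D5:**
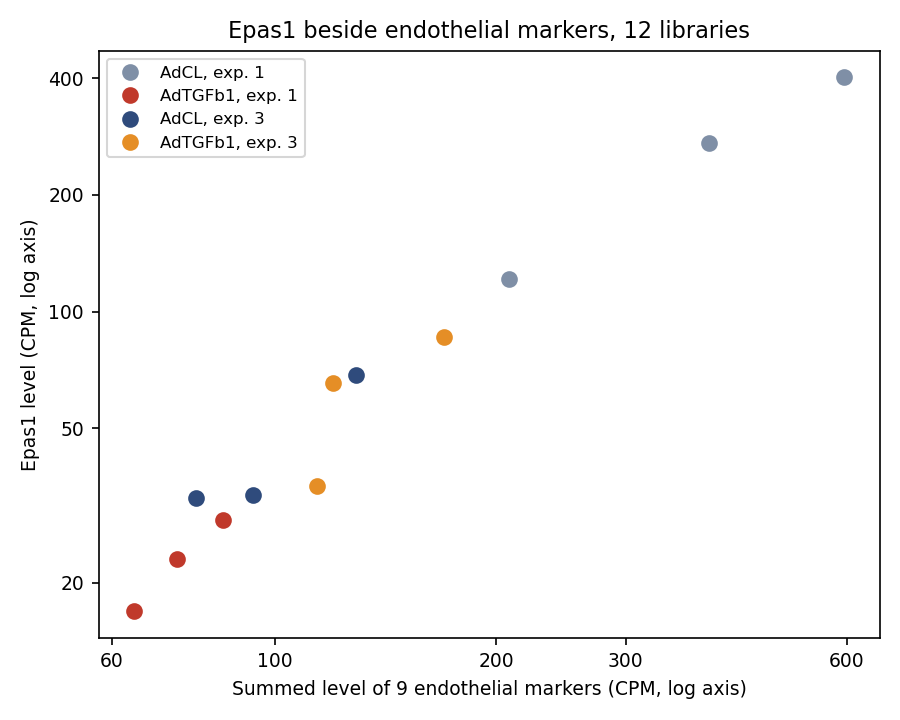
Level of Epas1 (y axis) against the summed level of 9 endothelial markers (x axis), both in CPM on log axes, with 1 point per library coloured by group. The 3 AdCL libraries of experiment 1 lie at the upper right on both axes and the 3 AdTGFb1 libraries of experiment 1 at the lower left for Epas1.

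Egln1, for the main HIF prolyl hydroxylase PHD2, ranged from 14.1 to 51.5 CPM and rose by 1.06 ± 0.28 in experiment 1 (adjusted p = 0.00661). It was not called in experiment 3 (0.07 ± 0.27, adjusted p = 0.942) or for the difference (adjusted p = 0.137). Vhl (11.2 to 36.5 CPM) was not called (0.48 ± 0.23 over both experiments, adjusted p = 0.179), nor was the hypoxia-induced hydroxylase Egln3, at 0.279 to 8.45 CPM (0.44 ± 0.77, adjusted p = 0.757).

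Vegfa showed its highest levels in AdCL of experiment 3. It was at 815, 716 and 807 CPM in AdCL and 618, 1020 and 715 CPM in AdTGFb1 libraries of experiment 1, with overlap. It was at 1380, 1340 and 1590 CPM in AdCL and 784, 1100 and 686 CPM in AdTGFb1 libraries of experiment 3, without overlap. Vegfa was 1.68-fold lower in experiment 3 (-0.75 ± 0.17, adjusted p = 0.00947), a call lost without DC 956 (adjusted p = 0.0733), and was not called in experiment 1 (0.01 ± 0.17, adjusted p = 0.983). The difference was not called (-0.76 ± 0.25, adjusted p = 0.0681). Over both experiments it was -0.37 ± 0.16 (adjusted p = 0.129), but it was called with a term for sex (-0.61, adjusted p = 0.00908), with a term for endothelial markers (-0.55, adjusted p = 0.0128) and without DC 52 (-0.51, adjusted p = 0.0171).

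Of the other hypoxia-induced targets, 5 were not called in any comparison, and neither was Bnip3. The 5 are Adm, for the vasodilator adrenomedullin, at 1.39 to 12.0 CPM, Ankrd37 at 2.32 to 14.6 CPM, P4ha2 at 0.938 to 8.66 CPM and Higd1a, for a mitochondrial protein, at 8.58 to 24.5 CPM. P4ha1, for a collagen prolyl hydroxylase subunit, was at 86.4 to 143 CPM. Of the 10 hypoxia-induced targets, 1 rose and 1 fell over both experiments, a share of 20% that is near the 17.2% of all genes, with a median log2 fold change of -0.17. In experiment 3, 3 of the 10 fell, against 4.46% of all genes called lower, with a median of -0.38.

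Outside the 36, glucose enters by GLUT carriers and lactate leaves by MCT carriers. Of the 7 glucose and monocarboxylate transport genes, 2 fell, 1 rose and 4 were not called over both experiments (42.9% called, against 17.2% of all genes). In experiment 3, 4 of the 7 fell, against 4.46% of all genes called lower. Slc2a3, for the high-affinity glucose transporter GLUT3, ranged from 36.6 to 110 CPM in AdCL and from 6.09 to 15.3 CPM in AdTGFb1 libraries, and fell with a log2 fold change of -2.66 ± 0.29 (adjusted p = 5.31e-06). Slc2a6, for GLUT6, ranged from 100 to 124 CPM in AdCL and from 46.1 to 61.5 CPM in AdTGFb1 (-1.14 ± 0.12, adjusted p = 4.58e-06). All 6 AdTGFb1 libraries lay below all 6 AdCL libraries for both genes. The neutrophil and platelet marker sums given above did not overlap between the vectors either, and their part here was not tested. Slc16a1, for the lactate carrier MCT1, rose by 0.74 ± 0.23 over both experiments (adjusted p = 0.0346, edgeR). By edgeR the change was 1.17 ± 0.29 in experiment 1 (adjusted p = 0.00494) and 0.30 ± 0.29 in experiment 3 (adjusted p = 0.664). The difference between experiments was not called (adjusted p = 0.229). Slc2a1, for GLUT1, was at 134 to 257 CPM and was not called over both (-0.29 ± 0.14, adjusted p = 0.184), but fell in experiment 3 (-0.61 ± 0.17, adjusted p = 0.0255). Slc16a3, for the lactate exporter MCT4, chosen after its values were seen, fell in experiment 3 (-0.71 ± 0.21, adjusted p = 0.0376) and had a difference between experiments of -0.99 ± 0.29 (adjusted p = 0.0447).

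Of 21 other genes of glycolysis and pyruvate use, 16 were tested, and over both experiments 3 fell and 13 were not called by edgeR (18.8% called, near the 17.2% of all genes). Gpd2, for the mitochondrial glycerol phosphate dehydrogenase, ran from 110 to 150 CPM in AdCL and from 60.9 to 95.1 CPM in AdTGFb1 (-0.80 ± 0.14, adjusted p = 0.000423). Eno3, the muscle enolase, fell by 1.12 ± 0.29 (adjusted p = 0.0124) at 5.38 to 27.9 CPM. Pdk4, a further pyruvate dehydrogenase kinase, ran from 2.27 to 9.67 CPM in AdCL and from 0 to 1.60 CPM in AdTGFb1 (adjusted p = 0.0162). Hkdc1, at 0.24 to 14.0 CPM, was not called (adjusted p = 0.0694).

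Of 16 other hypoxia-induced genes, 14 were tested, 1 rose, 1 fell and 12 were not called over both experiments (14.3% called, near the 17.2% of all genes). Bhlhe40, for a transcriptional repressor that hypoxia induces, ran from 1880 to 3100 CPM in AdCL and from 1160 to 2510 CPM in AdTGFb1 (-0.61 ± 0.11, adjusted p = 0.000762). Nos2, for inducible nitric oxide synthase, rose by 2.48 ± 0.64 (adjusted p = 0.0114) on levels from 0.326 to 68.0 CPM that overlapped between vectors. Ero1l, for an oxidase of protein folding, had the pattern of Ldha, with 1.48 ± 0.27 in experiment 1 (adjusted p = 0.000363), -0.37 ± 0.27 in experiment 3 (adjusted p = 0.525) and a difference of -1.85 ± 0.38 (adjusted p = 0.00509). Pgf, for placental growth factor, was not called (-0.86 ± 0.37, adjusted p = 0.127).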

How the data were processed

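Polyadenylated RNA of 12 samples was sequenced after a directional library kit, per the labels' protocols. HTSeq, STAR 2.5.0c, DESeq2, Trim Galore 0.4.1, FastQC 0.11.4, cutadapt 1.9.1 and bcl2fastq are listed with build mm9 in the submitters' processing notes, without role or order. The authors deposited raw read counts per gene symbol, 1 column per library.

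The counts were tested with edgeR 4.0.16 (R 4.3.3): TMM scaling, filterByExpr on the 4 groups, and the quasi-likelihood F test, two-sided, with Benjamini-Hochberg adjustment over 13221 genes and calls at an adjusted p under 0.05. The vector was tested over both experiments with an additive term for the experiment, which gave the comparison of experiments too, and a model of 4 groups gave the effect in each experiment and their difference. The SE is the effect over the square root of F. The procedure was tested on simulated data. At this depth 3 counts correspond to 0.181 to 0.31 CPM, which covers counting error only.

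Members and lists were chosen with earlier results of these data known. Library values are given for members called over both experiments or for the difference, and for Gapdh, Ldha, Pkm, Hif1a, Epas1 and Vegfa. Of other lists, up to 4 genes with the smallest adjusted p over both experiments are named. Exon length, overlap and copies come from GENCODE M21, of another build than the counts. RefSeq promoters (GRCm38.p6) had entries for 33 of 36 members; Epas1, Bnip3l and Ndrg1 had none. Alternatives were other scaling, DESeq2 1.42.0, other filters, terms for sex or endothelial markers, no term for the experiment, each experiment alone, and leaving out each library.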

Additional observations from a re-analysis of the deposited data

Results flagged for a closer look

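For 7 members the effect of AdTGFb1 differed between the 2 experiments by the interaction term of edgeR. The difference, experiment 3 minus experiment 1 on the log2 scale, was -0.92 for Hk2, -1.06 for Aldoa, -0.93 for Gapdh, -1.64 for Pgk1, -1.17 for Ldha, -2.47 for Ddit4 and 3.99 for Epas1. Adjusted p-values ran from 7.98e-05 for Epas1 to 0.0173 for Gapdh. Sex and endothelial marker levels differed between vectors in experiment 1, while all libraries of experiment 3 were from females. With sex added to the fit the difference of Epas1 was 3.66 (adjusted p = 0.0109), and the other 6 were not called. With the endothelial markers added instead, the difference of Epas1 was -0.018, and none of the 7 was called.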

How the results depend on the processing

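Over both experiments 6 members were called, and 5 to 9 under the other settings for all libraries. DESeq2 called 11 members for the difference between experiments and 5 for experiment 3 against experiment 1, and no low-count filter likewise gave 11 and 5, against 7 and 2 in edgeR; the cause was not tested. With a term for sex, 4 members were called in experiment 1, 1 for the difference and 6 for experiment 3 against 1. With a term for endothelial markers, these counts were 1, 0 and 8. At that count of 0 by edgeR, 6 of 36 members (16.7%) and 1046 of 13221 genes (7.91%) had an unadjusted p under 0.05. The Epas1 difference turned from 3.99 to -0.018 with that term. Leaving out single libraries gave 3 to 7 members over both experiments (3 without DC 944), 12 to 17 in experiment 1, 4 to 7 in experiment 3 (4 without DC 949 or DC 956), 5 to 10 for the difference and 2 to 5 for experiment 3 against 1 (5 without DC 954). Among the values of single named members under alternatives, 652 kept their direction and their side of the threshold, 97 lost and 3 gained a call, and 1 changed direction. Scaling by RLE moved the median of all genes by under 0.1 and changed no member count. No paired analysis was possible because the groups share no replicate number. At this depth the 7 members with a median under 10 CPM had SEs of 0.61 to 1.03 log2 units within an experiment.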

Other observations

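In the pentose phosphate pathway, which makes NADPH and ribose, 1 of 7 genes (14.3%) was called over both experiments, near the 17.2% of all genes. It was Rpe, for ribulose-phosphate epimerase, at 6.20 to 13.8 CPM in AdCL and 10.3 to 30.7 CPM in AdTGFb1 libraries (0.95 ± 0.28, adjusted p = 0.0255, edgeR). G6pdx, for the first enzyme (0.37 ± 0.16, adjusted p = 0.117), Pgd (0.25 ± 0.13, adjusted p = 0.224) and Rpia (0.49 ± 0.34, adjusted p = 0.367) were not called. Tkt, for transketolase, chosen after its values were seen, rose by 0.54 ± 0.14 in experiment 1 (adjusted p = 0.00553), with -0.30 ± 0.14 in experiment 3 (adjusted p = 0.25) and a difference of -0.84 ± 0.19 (adjusted p = 0.0107).

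None of 5 glycogen genes was called over both experiments by edgeR, and 3 had an unadjusted p under 0.05, as had 29.4% of all genes. Pygl, for liver glycogen phosphorylase, ran at 15.2 to 27.1 CPM in AdCL and 50.3 to 77.8 CPM in AdTGFb1 of experiment 1 (1.56 ± 0.30, adjusted p = 0.000466), and its difference between experiments was -1.69 ± 0.41 (adjusted p = 0.015). Ugp2, for the enzyme that makes UDP-glucose, rose by 1.03 ± 0.26 in experiment 1 (adjusted p = 0.00591). Pygb (0.38 ± 0.15, adjusted p = 0.0907) and Gbe1 (-0.43 ± 0.31, adjusted p = 0.393) were not called over both experiments.

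Of 10 further genes of oxygen sensing, 7 were tested and none was called over both experiments by edgeR, while 4 had an unadjusted p under 0.05, against 29.4% of all genes, and 6 of the 7 changes were negative. Hif1an, for the asparaginyl hydroxylase of HIF, was at 18.1 to 42.4 CPM in AdCL and 18.0 to 28.8 CPM in AdTGFb1 (-0.53 ± 0.19, adjusted p = 0.0595). Egln2 (-0.45 ± 0.17, adjusted p = 0.0751), Cul2 (-0.39 ± 0.17, adjusted p = 0.139) and Tceb1 (-0.48 ± 0.22, adjusted p = 0.143) were not called either.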
